A study of Mus musculus with 6 samples.

Results

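The WAP family genes followed here are Slpi, Wfdc2, Wfdc3, Wfdc5, Wfdc12, Wfdc17, Wfdc18 and Wfdc21, 8 of the 55487 Ensembl genes listed for each library. They are grouped under the name of the whey acidic protein (WAP) four-disulfide core, which the Wfdc genes carry in their own names and Slpi does not. All were selected on their FPKM in the same Znf750 cKO and Control libraries that are described here. Their differences between the groups are therefore given as a description and without p-values, and their place among the genes called over the whole table is a count from which nothing is read. RNA of newborn mouse epidermis at postnatal day 0 was measured in 6 libraries, 3 labelled Znf750 cKO and 3 labelled Control. Each came from back skin epidermis lifted off with dispase and dissociated with trypsin, with poly(A) selection and 100-nucleotide single reads. The labels give neither the strain, the deleted allele, the promoter that drives the deletion, nor the genotype of the Control pups. They also do not say whether a library is 1 pup or a pool, so the p-values below measure only the spread between these libraries, which may be technical.

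A WAP core is a small domain held together by 4 disulfide bonds between 8 cysteines. Several WAP proteins block serine proteases, and several kill bacteria. Slpi, the secretory leukocyte protease inhibitor, blocks neutrophil elastase and cathepsin G and is made by many epithelia that meet the outside. In skin it is low at rest and is known for its part in wound healing. The epidermis sheds its outer layer through a balance of serine proteases and their inhibitors, which is the setting in which WAP genes of keratinocytes are usually discussed. The deleted gene, listed under the mouse symbol Zfp750, codes for a zinc finger protein that acts in the nucleus of keratinocytes as they differentiate.

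The genes lie in 2 groups. On chromosome 2, Wfdc5 (chr2:164176327-164182742), Wfdc12 (chr2:164189231-164190608), Slpi (chr2:164354070-164389095) and Wfdc3 (chr2:164731180-164745931) are on the minus strand and Wfdc2 (chr2:164562413-164568510) on the plus strand, within 569.6 kb. On chromosome 11, Wfdc17 (chr11:83703991-83706268), Wfdc18 (chr11:83709015-83711348) and Wfdc21 (chr11:83746940-83752642) are on the plus strand within 48.7 kb. All positions refer to GRCm38 and were taken from GENCODE M21, and GRCm38 is a build that the submitters' processing notes name.

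The family name was checked against the coding sequences of that release, by a search for 8 cysteine codons with the spacing of a WAP core. The spacing allowed 3 to 20 codons between the first and second cysteine, 2 to 12 to the third, 5 to the fourth, 5 to the fifth, 0 to the sixth, 3 to 5 to the seventh and 3 to 4 to the eighth. At least 1 such core was found in 7 of the 8 genes, with 2 cores in each of Slpi, Wfdc2, Wfdc3 and Wfdc5 and 1 in each of Wfdc12, Wfdc17 and Wfdc18. None was found in Wfdc21. Its coding sequence of 192 bases holds 6 cysteine codons and no adjacent pair of them, which each of the other 7 genes has. The annotated Wfdc21 transcript therefore goes against the name of the family as far as a complete core is concerned. The coding sequences of the chromosome 11 genes are shown because Wfdc21 carried most of the family's signal and its neighbours almost none. They run 5′ to 3′ on the plus strand of GRCm38, with every in-frame cysteine codon in capitals.

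Wfdc21: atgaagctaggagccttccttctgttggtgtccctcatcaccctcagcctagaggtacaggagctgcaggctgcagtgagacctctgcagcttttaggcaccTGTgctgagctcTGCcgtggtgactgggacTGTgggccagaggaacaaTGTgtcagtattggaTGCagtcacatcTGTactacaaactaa
Wfdc18: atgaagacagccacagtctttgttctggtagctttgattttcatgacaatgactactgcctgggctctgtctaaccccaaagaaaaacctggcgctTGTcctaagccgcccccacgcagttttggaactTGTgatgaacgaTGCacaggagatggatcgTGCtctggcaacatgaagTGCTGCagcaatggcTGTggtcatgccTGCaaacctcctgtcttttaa
Wfdc17: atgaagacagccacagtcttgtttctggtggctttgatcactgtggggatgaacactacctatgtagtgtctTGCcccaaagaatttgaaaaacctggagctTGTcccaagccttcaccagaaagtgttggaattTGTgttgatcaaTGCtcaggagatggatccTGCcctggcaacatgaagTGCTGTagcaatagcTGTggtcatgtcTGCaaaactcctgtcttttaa

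Slpi is the gene of the family that was higher in Znf750 cKO, and its pair of cores is shown for comparison, each from the first to the last cysteine codon. They cover codons 36 to 73 and 90 to 127 of 131 and are read from the minus strand of chromosome 2, GRCm38, again with cysteine codons in capitals.

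Slpi core 1: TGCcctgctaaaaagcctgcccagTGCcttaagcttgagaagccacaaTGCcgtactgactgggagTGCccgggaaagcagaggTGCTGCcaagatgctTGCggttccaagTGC
Slpi core 2: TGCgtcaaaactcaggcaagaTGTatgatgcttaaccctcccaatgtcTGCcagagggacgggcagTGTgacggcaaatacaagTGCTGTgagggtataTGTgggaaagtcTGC

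Wfdc17 and Wfdc18 were the most alike, with 79.65% of aligned coding positions identical, and the longest run of bases that their coding transcripts share was 30. Between Wfdc21 and Wfdc18 the identity was 50.66% with a longest shared run of 8, and between Wfdc21 and Wfdc17 it was 49.79% with a run of 9. For every other pair of the 8 genes the longest run was 14 or less. No pair shares a run as long as a 100-nucleotide read. Exons of Wfdc5 and Wfdc12 overlap the opposite-strand gene A730032A03Rik by 81 and 125 bases, and the reads are not stated to keep strand. A730032A03Rik itself stood at 0.19, 0.19 and 0.14 FPKM in Znf750 cKO replicates 1 to 3, against 0.37, 0.18 and 0.40 FPKM in Control replicates 1 to 3.

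Levels are given in FPKM, a deposited unit that divides the fragments of a gene by its transcript length and by the library's mapped total. Steps that whole reads leave in these values placed the depth at an estimated 22.9 to 35.4 megareads in Znf750 cKO and 21.3 to 28.3 megareads in Control libraries. Zfp750 stood at 0.99, 0.83 and 1.47 FPKM in Znf750 cKO, against 44.82, 32.02 and 34.94 FPKM in Control, and fell by 4.19 on the log2(FPKM + 1) scale (SE 0.17, limma adjusted p = 4.62e-05). Keratinocyte markers were abundant in all libraries, with Krt10 at 8639.7 FPKM or more in Znf750 cKO and 7397.4 FPKM or more in Control. A gene was tested if 3 or more libraries had it at 1 FPKM or higher, and of 13688 such genes limma called 577 (4.22%) at an adjusted p under 0.05. Of these, 152 rose (1.11%) and 425 fell (3.10%), against 258 that rose and 295 that fell with median-ratio scaling. An unadjusted limma p under 0.05 was reached by 2914 of the 13688 tested genes. The counts at this unadjusted cut in the lists below are to be read beside that share. In bulk RNA, fewer cells of a type and less RNA per cell cannot be told apart.

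Wfdc21 was the most abundant of the 8 members in every library, and it was lower in Znf750 cKO. The mouse gene is also called Wdnm1-like. It stood at 22.07, 22.59 and 31.73 FPKM in Znf750 cKO replicates 1, 2 and 3, against 138.79, 308.09 and 143.80 FPKM in Control replicates 1, 2 and 3. The groups did not overlap, and the spread was wide within Control, where replicate 2 stood far above the other two. The group levels were 25.5 ± 5.43 FPKM in Znf750 cKO and 197 ± 96.3 FPKM in Control (mean ± SD, n = 3 each), so Control was 7.73-fold higher. On the log2(FPKM + 1) scale the difference was -2.82 (SE 0.35). Wfdc21 ranked 4021, 3854 and 2906 by FPKM among all genes of Znf750 cKO replicates 1 to 3, against 540, 284 and 571 in Control replicates 1 to 3. An estimated 200.1 to 261.4 reads lay behind each Znf750 cKO value and 1120.5 to 2202.5 behind each Control value.

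Slpi went the other way. It stood at 5.29, 3.49 and 5.6 FPKM in Znf750 cKO, against 0.18, 0.60 and 0.44 FPKM in Control. Each Znf750 cKO library was above each Control library, with none in between. The group levels were 4.79 ± 1.14 FPKM in Znf750 cKO and 0.407 ± 0.212 FPKM in Control (mean ± SD, n = 3 each), an 11.8-fold ratio of means. The log2(FPKM + 1) difference was 2.03 (SE 0.21), which understates that ratio because the Control values are small beside the added 1, and with 0.1 added in its place it was 3.34. The Control values rest on few reads, an estimated 4.0, 9.9 and 8.0 in replicates 1, 2 and 3, against 145.3, 71.7 and 99.7 in Znf750 cKO replicates 1, 2 and 3. Slpi passed the filter on low values only through the Znf750 cKO libraries, since no Control library reached 1 FPKM. Its rank among all genes was 9071, 9978 and 9066 in Znf750 cKO replicates 1 to 3, against 18848, 15306 and 16953 in Control replicates 1 to 3.

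Wfdc5, which encodes a protein with a pair of WAP cores, came second to Wfdc21 among the 8 members in every library. It stood at 12.61, 9.69 and 11.45 FPKM in Znf750 cKO, against 14.44, 22.06 and 15.52 FPKM in Control. The groups did not overlap, although the highest Znf750 cKO and the lowest Control library lay close together. The means were 11.2 ± 1.47 FPKM in Znf750 cKO and 17.3 ± 4.12 FPKM in Control (SD, n = 3 each), and the log2(FPKM + 1) difference was -0.57 (SE 0.18). As for Wfdc21, Control replicate 2 was the highest, and 26.5% of all tested genes had their highest Control value in that library. Wfdc2, known in human as the epididymal protein HE4, stood at 2.37, 1.91 and 1.83 FPKM in Znf750 cKO and 2.02, 2.01 and 1.69 FPKM in Control. These ranges overlapped, with a log2(FPKM + 1) difference of 0.06 (SE 0.16).

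**Figure D1:**
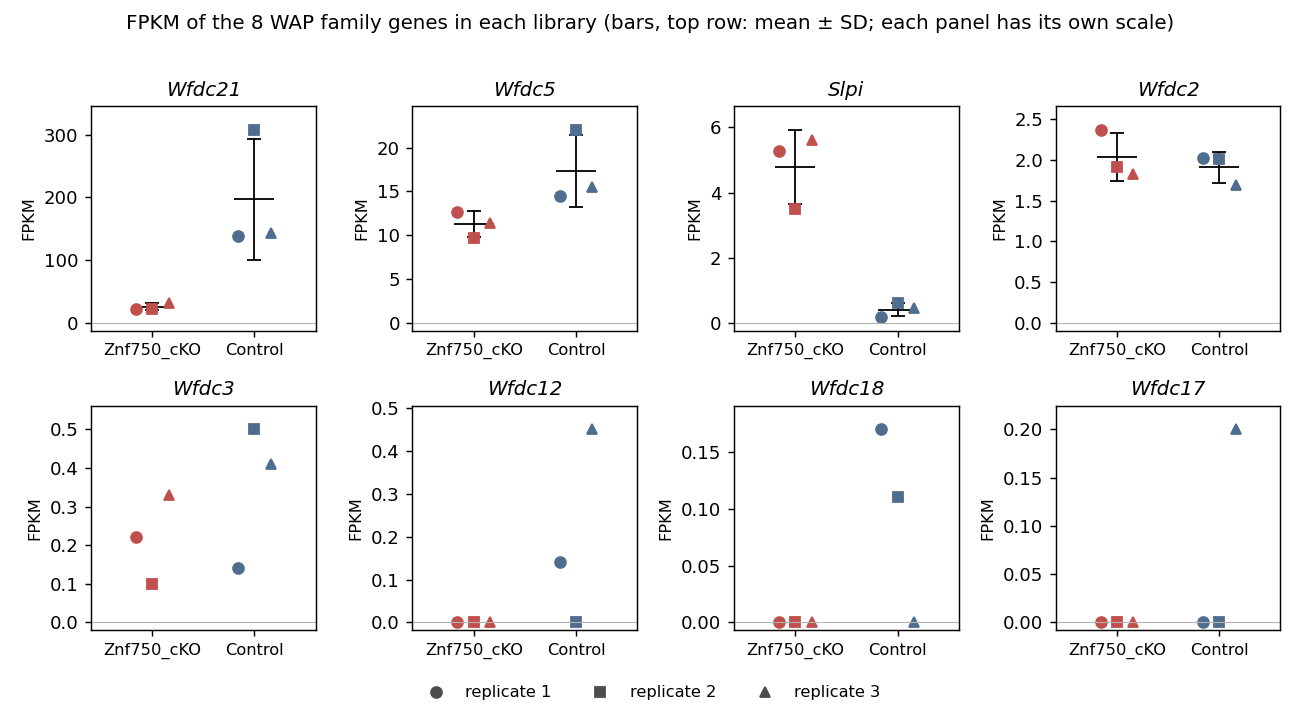
FPKM (vertical axes, each with its own scale) of the 8 WAP genes in 3 Znf750 cKO (red, left) and 3 Control libraries (blue, right), with marker shape for the replicate number and bars for mean ± SD of the 4 tested genes. Wfdc21 lies between 22.07 and 31.73 in Znf750 cKO and between 138.79 and 308.09 in Control, Slpi lies above 3 FPKM in Znf750 cKO and below 1 in Control, and 3 genes are at 0 in all Znf750 cKO libraries.

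The other 4 genes did not reach 1 FPKM in any library and were not tested. Wfdc3, with 2 WAP cores in the coding sequence searched, stood at 0.22, 0.10 and 0.33 FPKM in Znf750 cKO and 0.14, 0.50 and 0.41 FPKM in Control, with overlapping groups. Wfdc12, an antibacterial protein also called Swam2, was listed at 0 in all 3 Znf750 cKO libraries and at 0.14, 0 and 0.45 FPKM in Control. Wfdc18, the WDNM1 gene also called Expi, was listed at 0 in all 3 Znf750 cKO libraries and at 0.17, 0.11 and 0 FPKM in Control. Wfdc17, also called Amwap and known from activated microglia and macrophages, was listed at 0 in all libraries except Control replicate 3, where it was at 0.20 FPKM. The highest value of these last 3 genes corresponds to an estimated 7.1 reads and the others to at most 2.7. A count of 0 allows up to 3 reads, which at the estimated depths is 0.126 to 0.208 FPKM for Wfdc12, 0.201 to 0.333 for Wfdc18 and 0.195 to 0.324 for Wfdc17. These limits cover counting error only. No difference was detectable at this depth for Wfdc17 and Wfdc18, whose values all lie within their limits. For Wfdc12, 1 Control library lies above it.

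Of the 8 members 4 were tested, and the called genes held 1 of them among those that were higher, Slpi, and 1 among those that were lower, Wfdc21, beside the 1.11% and 3.10% of all tested genes given above. Wfdc21 was no longer among the called genes without Znf750 cKO replicate 1 or without Znf750 cKO replicate 2, where its log2 difference was -2.73 and -2.75. Groups did not overlap for 3 of the 4 tested members, 1 higher and 2 lower in Znf750 cKO, against 28.0% of all tested genes, of which 8.28% were higher and 19.7% lower. Nothing is read from these counts, since the members were named with this contrast in view. The median log2 difference of all tested genes was -0.08.

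**Figure D2:**
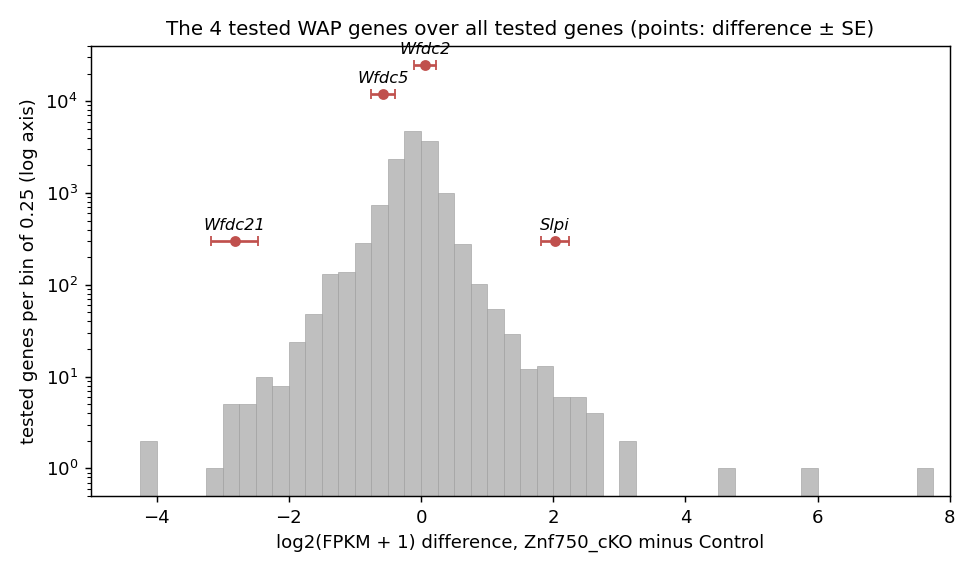
Number of tested genes per bin of log2(FPKM + 1) difference, Znf750 cKO minus Control (grey bars, logarithmic vertical axis), with the 4 tested WAP genes as red points with SE, placed at arbitrary heights. Wfdc21 lies at -2.82 and Slpi at 2.03, while Wfdc2 at 0.06 lies within the bulk of the genes. Wfdc5 at -0.57 lies toward the lower side, and 11.2% of tested genes had at least as large a difference in either direction.

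Within Control libraries the order of the 8 members by level was Wfdc21, then Wfdc5, then Wfdc2, with no overlap between neighbours in that order. Slpi, Wfdc3, Wfdc12, Wfdc17 and Wfdc18 lay below these, at 0.60 FPKM or less, and their Control ranges overlapped in part. Within Znf750 cKO libraries Wfdc21 and Wfdc5 held the first places, and the Slpi values, 3.49 FPKM or more, lay above those of Wfdc2, 2.37 FPKM or less. The 8 genes summed to 42.6, 37.8 and 50.9 FPKM in Znf750 cKO replicates 1 to 3, against 156, 333 and 163 FPKM in Control replicates 1 to 3. Wfdc21 made up 51.9%, 59.8% and 62.3% of that sum in Znf750 cKO, against 89.0%, 92.4% and 88.5% in Control. Without Wfdc21 the sum was 20.5, 15.2 and 19.2 FPKM in Znf750 cKO and 17.1, 25.3 and 18.7 FPKM in Control, so that the ranges of the groups overlapped. Set against Wfdc5 of the same library, Wfdc21 was 1.75, 2.33 and 2.77 times as high in Znf750 cKO, against 9.61, 14.0 and 9.27 times in Control. Slpi was 0.420, 0.360 and 0.489 times the Wfdc5 level in Znf750 cKO, against 0.0125, 0.0272 and 0.0284 times in Control. These ratios within a library do not depend on how the libraries are scaled.

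**Figure D3:**
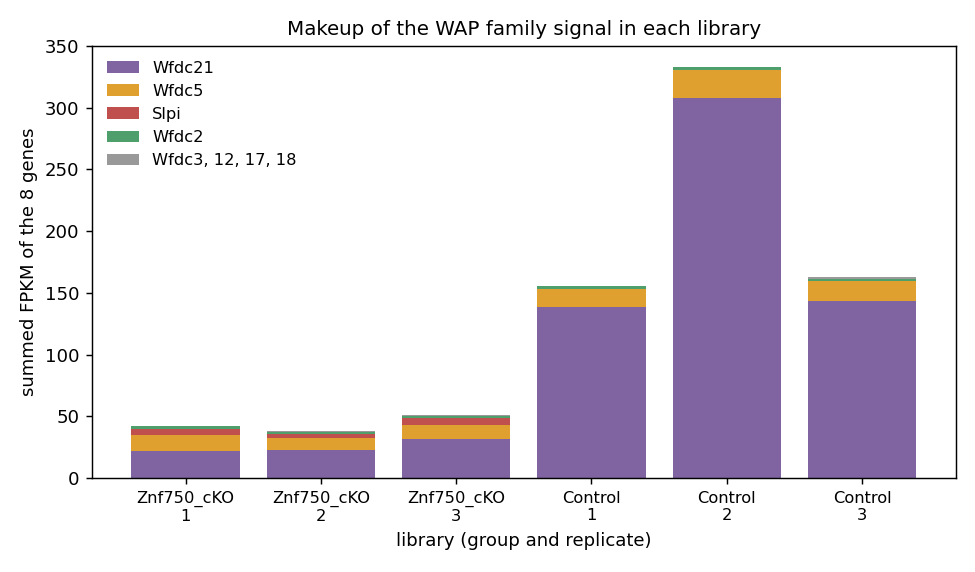
Summed FPKM of the 8 WAP genes (vertical axis) in each library, 3 Znf750 cKO on the left and 3 Control on the right, with 1 colour for each of the 4 tested genes and grey for the other 4 together. Wfdc21 fills 51.9% to 62.3% of the bar in Znf750 cKO and 88.5% to 92.4% in Control.

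The genes around the members were compared next, to see how the difference lies along the chromosome. Of 47 protein-coding genes within 200 kb of a member on chromosome 2, 19 were tested and none was called by limma. An unadjusted p under 0.05 was found for 4 of these 19, against 2914 of all 13688 tested genes. The median log2 difference of the 19 neighbours was 0.01. Sdc4, a cell surface proteoglycan and the most abundant of them, stood at 117 ± 4.90 FPKM in Znf750 cKO and 95.8 ± 10.0 FPKM in Control (log2 difference 0.29, limma adjusted p = 0.173). Another 28 of the 47 were under 1 FPKM in every library, and 14 of those, seminal vesicle and WAP or Kunitz genes, were listed at 0 throughout. On chromosome 11, 4 of 11 neighbours were tested, none was called and 2 had an unadjusted p under 0.05. Taf15, an RNA-binding protein and the most abundant of them, stood at 59.5 ± 6.62 FPKM in Znf750 cKO and 52.8 ± 2.71 FPKM in Control (log2 difference 0.16, limma adjusted p = 0.44). The chemokine gene Ccl6, named after its values were seen, stood at 0.88, 0.90 and 1.26 FPKM in Znf750 cKO, against 2.40, 8.69 and 3.51 FPKM in Control (log2 difference -1.40, limma adjusted p = 0.0863). Its groups did not overlap, and Control replicate 2 was the highest there too.

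**Figure D4:**
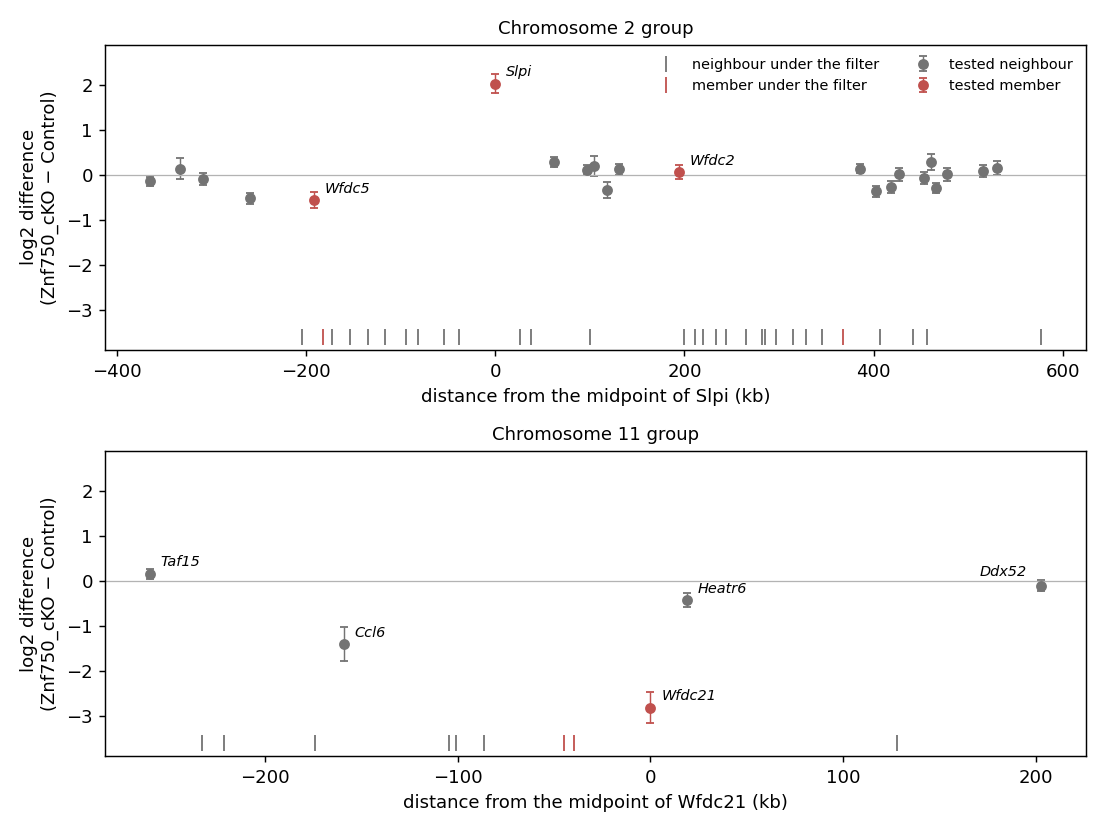
Log2(FPKM + 1) difference, Znf750 cKO minus Control, with SE (vertical axes) of tested members (red) and tested protein-coding neighbours within 200 kb (grey) against distance in kb from the midpoint of Slpi (top) or Wfdc21 (bottom); ticks at the bottom mark genes under the filter. Slpi at 2.03 and Wfdc21 at -2.82 lie apart from the tested genes beside them, of which Ccl6 at -1.40 is the farthest from 0.

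Of 16 other genes with a WAP domain, 2 were tested and neither was called by limma, while 1 had an unadjusted p under 0.05. Papln, an extracellular matrix protein, stood at 23.5 ± 5.66 FPKM in Znf750 cKO and 12.7 ± 5.03 FPKM in Control (log2 difference 0.88, limma adjusted p = 0.194). With the replicate number as a block it was called as higher (adjusted p = 0.0393), and over all alternatives its adjusted p lay between 0.0393 and 0.492. The other 14 were under 1 FPKM in every library, and 9 of them, Wap itself included, were listed at 0 throughout.

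Proteases and inhibitors that share the members' setting were counted from lists drawn up by function. Of 15 serine proteases of leukocytes, none was tested. Elane, neutrophil elastase, was listed at 0 except for 0.10 FPKM in Znf750 cKO replicate 3, and the 15 genes summed to between 1.26 and 2.27 FPKM in Znf750 cKO and between 1.23 and 1.77 FPKM in Control. Of 22 serine proteases of keratinocytes, 19 were tested, 3 fell, none rose and 16 did not pass, with a median log2 difference of -0.28. Among all tested genes 3.10% fell. An unadjusted limma p under 0.05 was reached by 10 of the 19 proteases. The kallikrein Klk10 fell to 15.2 ± 1.33 FPKM in Znf750 cKO, against 32.4 ± 5.44 FPKM in Control (log2 difference -1.03, SE 0.14, limma adjusted p = 0.0116, and 0.00596 to 0.0678 over the alternatives). The kallikrein Klk11 fell to 31.0 ± 3.92 FPKM in Znf750 cKO, against 54.2 ± 3.56 FPKM in Control (log2 difference -0.79, SE 0.12, limma adjusted p = 0.0156, and 0.0109 to 0.0808 over the alternatives). The third was Prss8, a membrane-anchored protease, named after its values were seen, at 13.79, 11.94 and 15.36 FPKM in Znf750 cKO, against 24.91, 33.06 and 24.24 FPKM in Control (log2 difference -0.94, limma adjusted p = 0.0185). None of the 3 passed without Znf750 cKO replicate 1, and without Control replicate 2 only Klk10 of the 3 did. Prss8 did not pass without Control replicate 1 or with the replicate number as a block either (adjusted p = 0.0546 with the block, 0.0129 to 0.0952 over the alternatives).

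Of 26 other secreted protease inhibitors, 12 were tested and none was called by limma, while 3 had an unadjusted p under 0.05 and the median log2 difference was -0.07. Cst3, the cysteine protease inhibitor cystatin C and the most abundant, stood at 374 ± 25.2 FPKM in Znf750 cKO and 417 ± 29.3 FPKM in Control (log2 difference -0.16, limma adjusted p = 0.448). Spink5, a serine protease inhibitor of desquamation, named after its values were seen, stood at 51.02, 44.79 and 47.14 FPKM in Znf750 cKO, against 57.83, 82.17 and 67.33 FPKM in Control (log2 difference -0.51, limma adjusted p = 0.082). Of 22 antimicrobial protein genes, 11 were tested, 1 rose, 1 fell and 9 did not pass, with a median log2 difference of 0.01. An unadjusted limma p under 0.05 was reached by 5 of the 11. S100a9, an alarmin subunit, rose to 8.41 ± 2.09 FPKM in Znf750 cKO, against 2.38 ± 0.809 FPKM in Control (log2 difference 1.48, SE 0.24, limma adjusted p = 0.0193). It did not pass without Znf750 cKO replicate 1 or without Control replicate 1. Lyz2, a lysozyme of myeloid cells, fell to 0.41 ± 0.141 FPKM in Znf750 cKO, against 6.22 ± 1.5 FPKM in Control (log2 difference -2.34, SE 0.19, limma adjusted p = 0.0017).

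Markers of other cell types moved beside Slpi and Wfdc21 in part. Of 15 markers of macrophages and Langerhans cells, 14 were tested and all 14 fell, summing to between 26.3 and 33.4 FPKM in Znf750 cKO and between 151 and 260 FPKM in Control. The number called was 10 with the replicate block, 7 without Znf750 cKO replicate 1, 8 without Znf750 cKO replicate 2, and 9 without Control replicate 1 or 2. Tyrobp, a signalling adaptor of myeloid cells, fell to 3.86 ± 0.490 FPKM in Znf750 cKO, against 30.1 ± 4.05 FPKM in Control (log2 difference -2.67, SE 0.14, limma adjusted p = 0.000207). The Langerhans cell marker Cd207 was at or under 0.06 FPKM in every library. Of 12 neutrophil markers, 3 were tested and 1, S100a9, rose, with sums between 8.13 and 24.1 FPKM in Znf750 cKO and between 4.45 and 10.3 FPKM in Control. The neutrophil marker Ly6g was listed at 0 in all libraries and Elane at 0 in 5 of them. Of 10 markers of simple and glandular epithelium, 6 were tested and 3 rose, with sums between 223 and 310 FPKM in Znf750 cKO and between 13.4 and 17.9 FPKM in Control. Krt8 accounted for most of that sum in Znf750 cKO but not in Control. It stood at 241 ± 40.4 FPKM in Znf750 cKO and 3.45 ± 0.282 FPKM in Control (log2 difference 5.75, limma adjusted p = 1.78e-06). The other risers of that list were Krt18 and Cldn7, named after their values were seen, and Krt18 passed in 1 of 6 fits with 1 library left out, the one without Znf750 cKO replicate 3, while Cldn7 passed in all 6. Pip was listed at 0 and Aqp5, Foxa1 and Cldn3 were under 1 FPKM in every library. The part of these cell types in the levels of Slpi and Wfdc21 was not tested.

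Among the remaining cell types the calls were few. Of 8 upper hair follicle markers, Plet1 rose to 83.8 ± 9.37 FPKM in Znf750 cKO, against 36.7 ± 1.67 FPKM in Control (limma adjusted p = 0.00239), 1 marker fell and 6 did not pass. The one that fell was Krt79, named after its values were seen (limma adjusted p = 0.0195), and with 1 library left out it passed in 1 of 6 fits, the one without Control replicate 3. Of 10 keratinocyte markers 1 rose, Ivl, a precursor of the cornified envelope, to 152 ± 27.0 FPKM in Znf750 cKO, against 44.5 ± 16.8 FPKM in Control (limma adjusted p = 0.0218), and it passed in 2 of 6 fits with 1 library left out, those without Znf750 cKO replicate 3 and without Control replicate 2. With the replicate block it did not pass (adjusted p = 0.0577, and 0.00406 to 0.0874 over the alternatives). None of the tested markers of mast cells (1 tested), T cells (3), fibroblasts (4), melanocytes (7) and endothelium (1) was called by limma, and 1 of these 16 markers had an unadjusted p under 0.05. Without Znf750 cKO replicate 3, 1 T cell marker was called. The most abundant tested markers of these types had these levels, each of which stands for that gene alone. The mast cell markers other than Kit, 7 in number, were under 1 FPKM in every library. Kit of mast cells averaged 7.04 ± 2.24 FPKM in Znf750 cKO and 7.26 ± 1.47 FPKM in Control, Thy1 of T cells 6.41 ± 2.97 FPKM in Znf750 cKO and 8.20 ± 2.97 FPKM in Control, and Dct of melanocytes 55.8 ± 1.30 FPKM in Znf750 cKO and 54.2 ± 17.8 FPKM in Control. Postn of fibroblasts stood at 198.37, 196.58 and 167.27 FPKM in Znf750 cKO and 235.00, 195.02 and 214.36 FPKM in Control. Of the 8 fibroblast markers, 4 were under 1 FPKM in every library. Pecam1 of endothelium averaged 16.5 ± 13.2 FPKM in Znf750 cKO and 16.1 ± 8.12 FPKM in Control. The other endothelium markers, 5 in number, were under 1 FPKM in every library. Krt17, the most abundant follicle marker, averaged 832 ± 33.3 FPKM in Znf750 cKO and 874 ± 128 FPKM in Control (SD, n = 3 each). The limma adjusted p of Kit, Thy1, Dct, Postn, Pecam1 and Krt17 was 0.397 to 0.941.

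The genes whose pattern was most like that of Wfdc21 over the 6 libraries were Acap1, 2310043M15Rik, C730034F03Rik, Xlr and Alox5, with Pearson correlations of log2(FPKM + 1) between 0.992 and 0.996. Alox5, the 5-lipoxygenase of leukotriene synthesis, stood at 0.20, 0.04 and 0.24 FPKM in Znf750 cKO and 1.47, 2.15 and 1.40 FPKM in Control. After the group means were taken off, these 5 genes correlated with Wfdc21 at 0.90 to 0.95, and each of the 5 was highest in Control replicate 2. Both traits come in part from picking the genes as the most alike over the same 6 libraries. For Slpi the closest were Lpo, Sprr1b, Tgm4, Adam8 and Card14, at 0.989 to 0.995, and at 0.76 to 0.94 after the group means were taken off. Lpo, lactoperoxidase, stood at 1.91, 1.32 and 1.96 FPKM in Znf750 cKO and 0.08, 0.12 and 0.11 FPKM in Control. Sprr1b, a cornified envelope precursor, stood at 143.39, 123.60 and 186.68 FPKM in Znf750 cKO and 19.48, 28.45 and 29.53 FPKM in Control. Lpo, Sprr1b, Tgm4 and Card14 were lowest in the same library as Slpi within each group, and Adam8 within Znf750 cKO only. This too comes in part from picking them as the most alike. Correlations of 0.95 or more were reached by 202 tested genes for Wfdc21 and 106 for Slpi. They are descriptions over 6 libraries that share the group difference. Acap1, 2310043M15Rik, Xlr and Alox5 passed the filter on low values only through Control libraries, and Lpo only through Znf750 cKO libraries.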

How the data were processed

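Per the file headers, the authors deposited FPKM values, 1 per Ensembl gene and library, printed to 2 decimals. The submitters' processing notes name RSEM 1.2.28, STAR 2.5.2a, cutadapt 1.15, Trim Galore 0.4.5, DESeq2, MultiQC 1.0 and FastQC 0.11.8, and as genome builds GRCm38 and mm10. What each tool was used for is not given in the sources used here, nor is the annotation.

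Symbols matched 55141 of 55487 identifiers. The members, lists and tests were chosen with earlier results of these data known. Genes that reached 1 FPKM in 3 or more libraries were tested together with limma 3.58.1 (intensity trend, robust variances through statmod 1.5.0, R 4.3.3) on the log2(FPKM + 1) scale, with a model of the group alone and Benjamini-Hochberg adjustment. Differences are Znf750 cKO minus Control on that scale, which understates changes of low genes. The fit was also run on simulated normal values, drawn independently for each library. That run does not bear on the replicate numbers or on changes of low genes, and no result here rests on it. Genes named are all members, Zfp750, from each list of proteases, inhibitors, antimicrobial proteins, other WAP genes and neighbours the 2 called genes with the smallest p in each direction or else the most abundant tested gene, and from each cell type list the most abundant tested gene and the called gene with the smallest p. For the 2 members with the largest differences the 5 most correlated genes are added. Other names were chosen after their values were seen.

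Depth is not given with FPKM. It was estimated from genes with 1 transcript of 200 to 700 bases, as the read number that brings FPKM times length less 99 bases within 0.1 of whole numbers most often, which 74.7% to 82.4% of the low values per library met. These estimates entered no test, and read numbers and coding sequences of members use the transcript that GENCODE numbers first. Coding sequences were aligned with Biopython 1.88, and figures were drawn with matplotlib 3.10.9 under Python 3.11.15.

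Both groups carry replicate numbers 1 to 3. For same-numbered libraries, the deviations from the group means had correlations over all tested genes of 0.306, 0.165 and 0.477, each over the limit of 0.1, so an alternative fit took this number as a block. Among libraries with different numbers, Znf750 cKO replicate 2 and Control replicate 1 had 0.24, also over the limit and above the 0.165 of the replicates numbered 2. The other such pairs lay between -0.389 and -0.042. The labels do not explain the number, and the pairing rests on these correlations alone. Alternatives covered scaling, pseudocount, filter, variance model, this block and left-out libraries.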

Additional observations from a re-analysis of the deposited data

How the results depend on the processing

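The members were selected on this contrast, so the calls among them support nothing. Their number was 2 in the reported fit, 1 with a filter at FPKM 5, which removes Slpi, and 1 to 2 with 1 library left out. The log2 difference lay between -3.16 and -2.45 for Wfdc21, between 1.91 and 2.28 for Slpi, between -0.68 and -0.39 for Wfdc5 and between -0.02 and 0.12 for Wfdc2 over all alternatives other than the pseudocount. Without Znf750 cKO replicate 1 Wfdc2 took its negative value, and with 0.1 as the pseudocount Slpi reached 3.34.

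Over all genes 577 were called, 392 with the replicate block, 85 without a filter on low values, and 100 to 356 with 1 library left out, fewest without Znf750 cKO replicate 1. With median-ratio scaling 258 genes were higher and 295 lower in Znf750 cKO, against 152 and 425 as reported, and the median of all genes moved by 0.08. The block ended the calls of Ivl and Prss8, brought in that of Papln, and changed no other call printed here for a gene named by rule. Without a filter on low values Klk10, Klk11, S100a9, Ivl, Prss8, Krt79 and Krt18 did not pass, 7 of the macrophage and Langerhans cell markers did, and without replicate 3 of both groups Ivl did not pass (adjusted p = 0.0874).

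Control values of Slpi and all values of Wfdc3, Wfdc12, Wfdc17 and Wfdc18 rest on under 10 estimated reads per library, which limits what can be said of their ratios.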
